A study of Mus musculus with 6 samples.

Results

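The 10 genes described here encode the proteins that release calcium from intracellular stores, pump it back and carry it out of the cell. They are the release channels Ryr2, Ryr3 and Itpr1, the store pump Atp2a2, the plasma membrane pumps Atp2b1, Atp2b2 and Atp2b4, and the sodium-calcium exchangers Slc8a1, Slc8a2 and Slc8a3. They were listed by symbol for their role, with no threshold on a measured value but with earlier results of these data known. The count files hold 55401 genes, and all 10 were among the 19969 genes with enough counts to be tested.

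In a neuron at rest, calcium in the cytosol is kept far below its level outside the cell and inside the endoplasmic reticulum. Ryanodine receptors open when calcium itself binds to them, and inositol trisphosphate (IP3) receptors open when both IP3 and calcium are present, so that a small entry of calcium is enlarged from the store. The SERCA pump refills the store, plasma membrane pumps (PMCA) remove calcium with high affinity, and sodium-calcium exchangers (NCX) remove larger amounts in exchange for sodium. In the hippocampus these proteins shape the calcium signals of spines and nerve terminals on which synaptic plasticity depends.

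The dorsal hippocampus of 6 WT mice was sequenced, 3 given the Control-ASO and 3 the Snhg11-ASO. An antisense oligonucleotide (ASO) of this kind recruits RNase H to a matching RNA, here the long non-coding RNA Snhg11, and the Control-ASO carried the same bases in scrambled order. The animals were WT littermates of the Ts65Dn line, 4 months old and male, and each hemisphere of the dorsal dentate gyrus (DG) had received 50 μg of ASO 3 days before the dissection. All animals thus shared the surgery and an ASO injection, and animals without an injection were not part of the comparison. The dorsal part of the hippocampus was taken whole, so that granule cells of the DG were sequenced together with pyramidal cells, interneurons, glia and vessels. In such bulk tissue, fewer cells of a type and less RNA per cell cannot be told apart.

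Between 28951250 and 43997537 read pairs per sample were assigned to genes on the strand that the library kit reports. These made up 96.2% to 96.8% of the gene counts of both strands added together. Values are given as CPM, counts set to a common library size with TMM factors. Snhg11 itself averaged 398 ± 174 CPM (SD, n = 3) in Control-ASO and 91.3 ± 41.4 CPM (SD, n = 3) in Snhg11-ASO, with no overlap between the groups. Its log2 fold change was −2.13 (edgeR quasi-likelihood test, unadjusted p = 0.0017, Benjamini-Hochberg adjusted p = 0.395). Ddx3y, a gene of the Y chromosome, was counted at 61.3 to 93.6 CPM, here per plain library total, in every library, and Xist at no more than 0.182. Summed markers of choroid plexus, the epithelium of the ventricle, ran from 36.1 to 1887 CPM within Control-ASO and from 65.4 to 1291 CPM within Snhg11-ASO. Snhg11-ASO replicate 1 had the lowest summed level of microglial markers, 119 CPM against 192 to 351 CPM in the other libraries. The labels do not say how the samples were collected beyond their group and number. A p-value here sets the group difference only against the spread between these libraries.

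The promoters of the 3 exchanger genes are shown because, of the 3 ratios of paralogs examined, only that of Slc8a1 to Slc8a2 did not overlap between the groups, as described with the exchangers. The sequences are the 250 bases before the RefSeq start of each gene in GRCm38.p6, on the strand of the gene. Capitals mark a match to one of 5 motifs searched on both strands.
Slc8a1: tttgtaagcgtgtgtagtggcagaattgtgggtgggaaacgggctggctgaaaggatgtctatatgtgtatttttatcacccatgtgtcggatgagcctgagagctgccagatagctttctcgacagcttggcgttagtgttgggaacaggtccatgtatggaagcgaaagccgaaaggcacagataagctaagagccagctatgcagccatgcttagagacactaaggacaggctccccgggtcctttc
Slc8a2: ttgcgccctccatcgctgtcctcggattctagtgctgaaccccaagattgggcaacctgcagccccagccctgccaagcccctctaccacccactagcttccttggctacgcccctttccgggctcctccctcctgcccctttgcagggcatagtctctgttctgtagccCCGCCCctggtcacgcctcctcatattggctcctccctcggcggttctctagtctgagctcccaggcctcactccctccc
Slc8a3: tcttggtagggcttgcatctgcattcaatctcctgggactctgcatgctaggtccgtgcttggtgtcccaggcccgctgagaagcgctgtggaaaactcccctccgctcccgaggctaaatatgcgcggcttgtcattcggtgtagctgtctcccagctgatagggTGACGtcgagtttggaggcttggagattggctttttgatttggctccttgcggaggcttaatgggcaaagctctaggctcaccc

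The Slc8a1 window is chr17:81738388-81738637 on the minus strand, the Slc8a2 window chr7:16129576-16129825 on the plus strand, and the Slc8a3 window chr12:81333181-81333430 on the minus strand. The motifs were the cAMP response element TGACGTCA, its half-site TGACG, the GC box GGGCGG, the E-box CACGTG and the TATA box TATAAA. The half-site is contained in the full element. Slc8a2 held 1 GC box, read from the other strand, and a GC box occurred in 32.7% of the 32851 RefSeq promoter windows. Slc8a3 held 1 half-site, which 17.8% of windows had. Slc8a1 held no match to any of the 5 motifs. The bases that follow the Slc8a1 window were not found whole in a GENCODE M21 transcript of the gene, while those of Slc8a2 and Slc8a3 were. In GENCODE M21 the Slc8a1 gene begins at 81738377, close to this window. Which start is used in the hippocampus was not tested. The full element was found in 1.55% of all windows, the E-box in 6.02% and the TATA box in 12.4%. The bases G and C made up 50.4% of the Slc8a1 window, 63.2% of the Slc8a2 window and 56.0% of the Slc8a3 window, around a median of 52.4% over all windows. RefSeq windows were matched for 7 of the 10 genes, all but Ryr3, Itpr1 and Atp2a2.

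Levels were compared between genes per kilobase (kb) of merged exon. Atp2a2 was the highest of the 10 with a mean of 107 CPM per kb over all 6 libraries, followed by Atp2b1 with 80.0. Slc8a2 averaged 39.9 CPM per kb, Slc8a1 38.9, Itpr1 33.0 and Atp2b2 31.6. These middle genes overlapped their neighbours in range over the libraries, so their order is not fixed by the data. Ryr2 averaged 23.4 CPM per kb and Ryr3 11.5, each below all libraries of the gene above it. Atp2b4 with 6.90 and Slc8a3 with 3.78 CPM per kb were the lowest, and Atp2b4 overlapped both Ryr3 and Slc8a3 in range. The merged exons include those of rare isoforms, which lowers the value of a gene with long alternative exons.

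The question of the comparison was which genes differ in the dorsal hippocampus when Snhg11 is knocked down. Of the calcium genes, 8 averaged lower and 2 higher in Snhg11-ASO, and Slc8a1, at 78.2% of its Control-ASO level, had the smallest p. The median log2 fold change of the 10 was −0.17, where that of all genes tested was 0.01 and 48.3% of all genes were lower. None of the 10 passed a Benjamini-Hochberg adjusted p of 0.05 under edgeR (quasi-likelihood), as for all genes tested (0 of 19969, or 0%). Snhg11, the target of the ASO, did not pass this threshold either, although its groups did not overlap. At an unadjusted p under 0.05, 1 of the 10 was reached, Slc8a1, where 1619 of all genes or 8.11% were. In DESeq2, Slc8a1 passed the adjusted threshold and the other 9 did not, and 1.44% of all genes did (258 of 17966). In 2 of the 10, Atp2b2 and Slc8a1, all Snhg11-ASO libraries lay below all Control-ASO libraries, as in 7.7% of all genes tested.

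**Figure D1:**
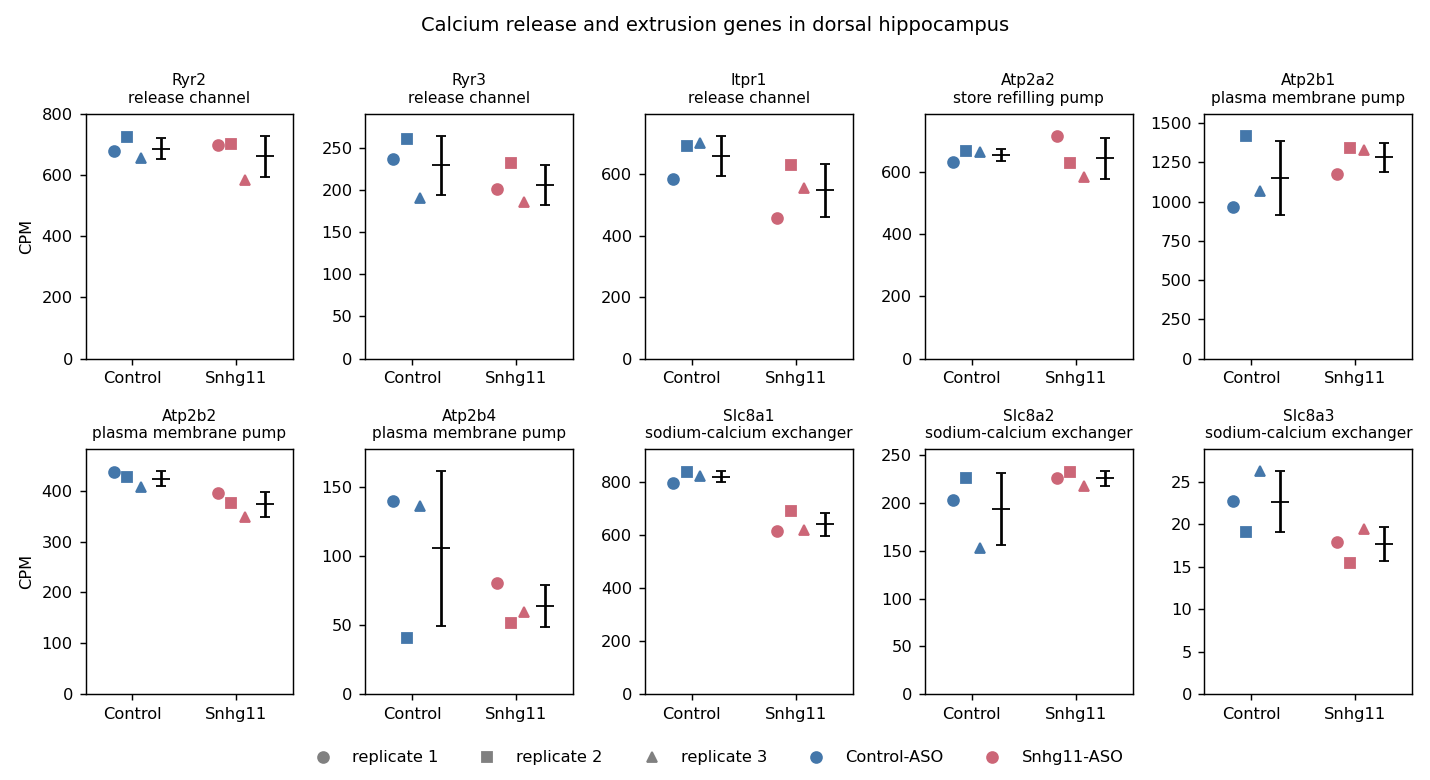
Each panel plots the CPM of 1 gene in the 3 Control-ASO (blue) and 3 Snhg11-ASO (red) libraries from a zero baseline, with replicate numbers as symbols and the mean ± SD in black. The groups lie apart for Atp2b2 and Slc8a1, and the replicates of Atp2b4 in Control-ASO spread from 40.8 to 139 CPM.

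The number of genes reached at an unadjusted p under 0.05 moved with the fit. With the replicate number as a block it was 3 of 10, where 8.59% of all genes were reached. These were Itpr1, Slc8a1 and Slc8a3, with edgeR adjusted p-values of 0.538, 0.484 and 0.528 under the block. Without Control-ASO replicate 2 it was 4, namely Atp2b1, Atp2b4, Slc8a1 and Slc8a3, with 8.07% of all genes. Without Snhg11-ASO replicate 1 it was 2 (Atp2b2 and Slc8a1), with 9.94% of all genes. Without Snhg11-ASO replicate 2 it was also 2 (Itpr1 and Slc8a1), with 8.54% of all genes.

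The release channels were described first. Ryr2 is the ryanodine receptor of heart muscle and the most widespread one in the brain. Ryr2 (ENSMUSG00000021313, minus strand of chromosome 13, 11553102 to 12106945) was counted at 677, 724 and 657 CPM in replicates 1, 2 and 3 of Control-ASO, against 698, 701 and 584 CPM in those of Snhg11-ASO. The groups overlapped, and only Snhg11-ASO replicate 3 lay below the Control-ASO range. The mean was 686 ± 34.6 CPM (SD, n = 3) in Control-ASO and 661 ± 67.1 CPM (SD, n = 3) in Snhg11-ASO, a log2 fold change of −0.05 with a 95% interval from −0.32 to 0.21 and an edgeR Benjamini-Hochberg adjusted p of 0.915.

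Ryr3 is the ryanodine receptor known from hippocampus and striatum. Ryr3 (ENSMUSG00000057378, minus strand of chromosome 2, 112631355 to 113217096) had 237, 261 and 191 CPM in the Control-ASO libraries and 202, 232 and 186 CPM in the Snhg11-ASO libraries. In both groups replicate 2 was highest and replicate 3 lowest, and the ranges overlapped over most of their width. The means were 230 ± 35.3 CPM (SD, n = 3) and 207 ± 23.6 CPM (SD, n = 3), with a log2 fold change of −0.15, a 95% interval from −0.49 to 0.18 and an edgeR Benjamini-Hochberg adjusted p of 0.805. The ratio of Ryr2 to Ryr3 counts within a library was 2.86, 2.78 and 3.43 in Control-ASO, against 3.46, 3.02 and 3.14 in Snhg11-ASO (two-sided exact permutation test, p = 0.5, where 0.1 is the smallest p that 3 against 3 allow). Aven overlaps Ryr3 on the other strand by 916 exonic bases, and reads on the opposite strand were at most 0.607% of the Ryr3 counts.

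Itpr1 encodes the main IP3 receptor of neurons, whose loss causes ataxia. Itpr1 (ENSMUSG00000030102, plus strand of chromosome 6, 108213096 to 108551109) was counted at 584, 693 and 702 CPM in Control-ASO and at 457, 630 and 557 CPM in Snhg11-ASO. Only Snhg11-ASO replicate 2 lay above a Control-ASO library, and replicate 1 was the lowest of each group. The means were 659.6 ± 65.8 CPM (SD, n = 3) and 548 ± 86.9 CPM (SD, n = 3), a log2 fold change of −0.27 with a 95% interval from −0.61 to 0.08 and an edgeR Benjamini-Hochberg adjusted p of 0.682. Summed per kb, the 3 release channels reached 71.9 ± 4.49 CPM per kb (SD, n = 3) in Control-ASO and 63.8 ± 6.27 CPM per kb (SD, n = 3) in Snhg11-ASO. Itpr1 made up 50.02 ± 3.47% (SD, n = 3) of that sum in Control-ASO and 46.8 ± 4.52% (SD, n = 3) in Snhg11-ASO, a difference smaller than either spread.

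Atp2a2 encodes SERCA2, the pump that returns calcium to the endoplasmic reticulum in most cells. Atp2a2 (ENSMUSG00000029467, minus strand of chromosome 5, 122453513 to 122502225) had 633, 668 and 664 CPM in Control-ASO and 717, 629.9 and 586 CPM in Snhg11-ASO. The Control-ASO libraries lay close together, and the Snhg11-ASO libraries spread to both sides of them. The means were 655 ± 19.1 CPM (SD, n = 3) and 644 ± 66.9 CPM (SD, n = 3), with a log2 fold change of −0.02, a 95% interval from −0.28 to 0.23 and an edgeR Benjamini-Hochberg adjusted p of 0.966.

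Of the plasma membrane pumps, which calmodulin activates, Atp2b1 is the form found in nearly all cells. Atp2b1 (ENSMUSG00000019943, plus strand of chromosome 10, 98914406 to 99026143) was counted at 967, 1419.9 and 1069 CPM in Control-ASO and at 1178, 1345 and 1329 CPM in Snhg11-ASO. Control-ASO held both the highest library, replicate 2, and the lowest, replicate 1. The means were 1152 ± 237 CPM (SD, n = 3) and 1284 ± 91.9 CPM (SD, n = 3), a log2 fold change of 0.16 with a 95% interval from −0.23 to 0.54 and an edgeR Benjamini-Hochberg adjusted p of 0.829.

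Atp2b2 is a fast pump of neurons and hair cells, and mutant mice are deaf and ataxic. Atp2b2 (ENSMUSG00000030302, minus strand of chromosome 6, 113743831 to 114042613) had 436, 428 and 408 CPM in Control-ASO and 395, 376 and 348 CPM in Snhg11-ASO. The groups did not overlap, and the gap between the nearest libraries was narrow. The Snhg11-ASO mean of 373 ± 23.7 CPM (SD, n = 3) was 88.0% of the Control-ASO mean of 424 ± 14.6 CPM (SD, n = 3). The log2 fold change was −0.18 with a 95% interval from −0.40 to 0.03, and the edgeR Benjamini-Hochberg adjusted p was 0.660 (exact permutation test, two-sided, p = 0.1, again the lowest p possible).

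Atp2b4, the pump known from red blood cells, had the widest spread of the 10 relative to its mean. Atp2b4 (ENSMUSG00000026463, minus strand of chromosome 1, 133699457 to 133801041) was counted at 139, 40.8 and 136 CPM in Control-ASO and at 80.2, 51.2 and 59.4 CPM in Snhg11-ASO. Control-ASO replicate 2 was the lowest of all 6 libraries and the other 2 Control-ASO libraries the highest. The means were 105 ± 55.9 CPM (SD, n = 3) and 63.6 ± 15.0 CPM (SD, n = 3), a log2 fold change of −0.73 with a 95% interval from −1.77 to 0.31 and an edgeR Benjamini-Hochberg adjusted p of 0.709. Leaving out Control-ASO replicate 2 gave a log2 fold change of −1.11, and leaving out other libraries gave values up to −0.49.

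Choroid plexus markers moved with Atp2b4 across the libraries. The 6 markers summed to 1887, 36.1 and 1222 CPM in Control-ASO and to 1291, 121 and 65.4 CPM in Snhg11-ASO, and the 3 libraries with the most of them were also the 3 with the most Atp2b4. Ttr, which encodes the transthyretin secreted by this epithelium, was at 1752, 12.9 and 1126 CPM in Control-ASO and at 1192, 85.4 and 37.7 CPM in Snhg11-ASO, so that it was counted in all libraries. All 6 markers averaged lower in Snhg11-ASO, with a median log2 fold change of −0.93 and none at an unadjusted p under 0.05. Single libraries moved this median, to −0.25 without Control-ASO replicate 1, −1.50 without Control-ASO replicate 2, −3.09 without Snhg11-ASO replicate 1, −0.50 without Snhg11-ASO replicate 2 and −0.41 without Snhg11-ASO replicate 3. The part of choroid plexus in the values of Atp2b4 was not tested. Atp2b1 ran the other way, lowest in the 3 libraries with the most choroid plexus markers, and the ratio of Atp2b1 to Atp2b4 counts within a library was 6.94, 34.8 and 7.87 in Control-ASO, against 14.7, 26.3 and 22.4 in Snhg11-ASO (two-sided exact permutation test, p = 0.4). This ratio, and the other ratios within families, were chosen after the values were seen.

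**Figure D2:**
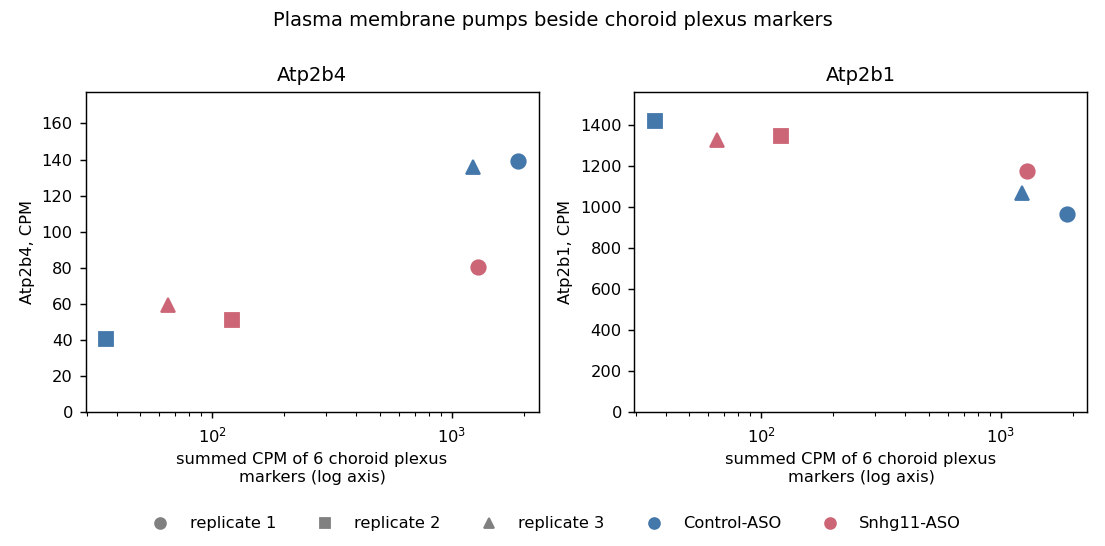
Atp2b4 (left) and Atp2b1 (right) in CPM, on axes from 0, against the summed CPM of 6 choroid plexus markers on a log axis, 1 point per library, with groups by colour and replicate numbers by symbol. The libraries fall at 36.1 to 121 and at 1222 to 1887 CPM of markers, each cluster holding both groups, and Atp2b4 is higher and Atp2b1 lower in the cluster with more markers.

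The summed level of the 3 pumps overlapped between the groups, at 118 ± 11.1 CPM per kb (SD, n = 3) in Control-ASO and 119 ± 3.59 CPM per kb (SD, n = 3) in Snhg11-ASO. Atp2b1 supplied 63.8 ± 6.92% (SD, n = 3) of this sum in Control-ASO and 70.8 ± 3.14% (SD, n = 3) in Snhg11-ASO. Atp2b2 supplied 28.7 ± 2.80% (SD, n = 3) and 24.9 ± 2.11% (SD, n = 3), and Atp2b4 7.57 ± 4.36% (SD, n = 3) and 4.38 ± 1.17% (SD, n = 3). The ranges of all 3 shares overlapped between the groups.

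Of the exchangers, Slc8a1 (NCX1) is the form of heart muscle and is also found throughout the brain. Slc8a1 (ENSMUSG00000054640, minus strand of chromosome 17, 81373105 to 81738377) was counted at 798, 839 and 825 CPM in Control-ASO and at 614, 691 and 619.9 CPM in Snhg11-ASO. All Snhg11-ASO libraries lay below all Control-ASO libraries, and the nearest were Control-ASO replicate 1 and Snhg11-ASO replicate 2. The mean was 821 ± 21.03 CPM (SD, n = 3) in Control-ASO and 642 ± 43.0 CPM (SD, n = 3) in Snhg11-ASO. The log2 fold change was −0.36 with a standard error of 0.10 and a 95% interval from −0.58 to −0.13 (edgeR quasi-likelihood test, unadjusted p = 0.0079, Benjamini-Hochberg adjusted p = 0.492, and two-sided exact permutation test, p = 0.1).

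In DESeq2 the log2 fold change of Slc8a1 was −0.35 with a Benjamini-Hochberg adjusted p of 0.028, which passed the threshold. DESeq2 also called it without Snhg11-ASO replicate 1 (adjusted p = 0.020) and without Snhg11-ASO replicate 2 (adjusted p = 0.043), but not without Snhg11-ASO replicate 3 (adjusted p = 0.249). Over all 21 alternative fits the log2 fold change stayed below 0, from −0.41 to −0.17. Markers common to all neurons moved in the same direction as Slc8a1, with summed levels of 2479 to 2741 CPM in Control-ASO and 2089 to 2435 CPM in Snhg11-ASO, 5 of 6 markers lower and a median log2 fold change of −0.20, which was −0.08 after correction for genomic span. The remaining marker of all neurons was higher, with no overlap between the groups. Interneuron markers also moved in the direction of Slc8a1, with 399.5 to 449 CPM and 335 to 379 CPM and 6 of 6 markers lower. Markers of DG granule cells and of pyramidal cells did not, with 3 of 6 and 3 of 8 lower and median log2 fold changes of 0.10 and 0.08. The part of these cell types in the values of Slc8a1 was not tested.

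Slc8a2 (NCX2) is an exchanger of brain, and mice without it are known for altered hippocampal plasticity. Slc8a2 (ENSMUSG00000030376, plus strand of chromosome 7, 16129826 to 16161063) had 203, 226.2 and 152 CPM in Control-ASO and 226.5, 233 and 218 CPM in Snhg11-ASO. Only Control-ASO replicate 2 reached into the range of Snhg11-ASO. The means were 194 ± 37.7 CPM (SD, n = 3) and 226 ± 7.54 CPM (SD, n = 3), a log2 fold change of 0.22 with a 95% interval from −0.13 to 0.57 and an edgeR Benjamini-Hochberg adjusted p of 0.734.

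Slc8a3 (NCX3), found in brain and skeletal muscle, was the lowest of the 10. Slc8a3 (ENSMUSG00000079055, minus strand of chromosome 12, 81197915 to 81333180) was counted at 22.7, 19.1 and 26.3 CPM in Control-ASO and at 17.9, 15.5 and 19.5 CPM in Snhg11-ASO. The groups overlapped only at Control-ASO replicate 2 and Snhg11-ASO replicate 3, and in both groups replicate 2 was lowest and replicate 3 highest. The means were 22.7 ± 3.59 CPM (SD, n = 3) and 17.6 ± 2.01 CPM (SD, n = 3), with a log2 fold change of −0.36, a 95% interval from −0.74 to 0.01 and an edgeR Benjamini-Hochberg adjusted p of 0.618.

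The balance between the major exchangers differed more than their sum. The ratio of Slc8a1 to Slc8a2 counts within a library was 3.93, 3.71 and 5.41 in Control-ASO, against 2.71, 2.96 and 2.84 in Snhg11-ASO. Every Snhg11-ASO library was below every Control-ASO library, and the Snhg11-ASO libraries lay close together (exact permutation test, two-sided, p = 0.1, again the lowest p possible). The ratio was chosen after the values were seen, and it divides a gene that averaged lower by a gene that averaged higher. Its separation and its p therefore only describe these libraries. The ratio averaged 4.35 ± 0.923 (SD, n = 3) in Control-ASO and 2.84 ± 0.127 (SD, n = 3) in Snhg11-ASO. Per kb of exon, Slc8a1 made up 51.7 ± 4.09% (SD, n = 3) of the exchanger sum in Control-ASO and 42.4 ± 1.25% (SD, n = 3) in Snhg11-ASO, while Slc8a2 made up 43.2 ± 5.24% (SD, n = 3) and 53.4 ± 0.893% (SD, n = 3). The most abundant exchanger transcript per kb was thus Slc8a1 in the 3 Control-ASO libraries and Slc8a2 in the 3 Snhg11-ASO libraries. This order depends on the merged exon lengths, 18.8 kb for Slc8a1 and 5.26 kb for Slc8a2, and in CPM Slc8a1 was higher in all 6 libraries. In Control-ASO replicate 2 the values were close, at 44.6 CPM per kb for Slc8a1 and 43.0 for Slc8a2. The sum of the 3 exchangers was 84.7 ± 6.74 CPM per kb (SD, n = 3) in Control-ASO and 80.4 ± 3.16 CPM per kb (SD, n = 3) in Snhg11-ASO, and the ranges overlapped.

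**Figure D3:**
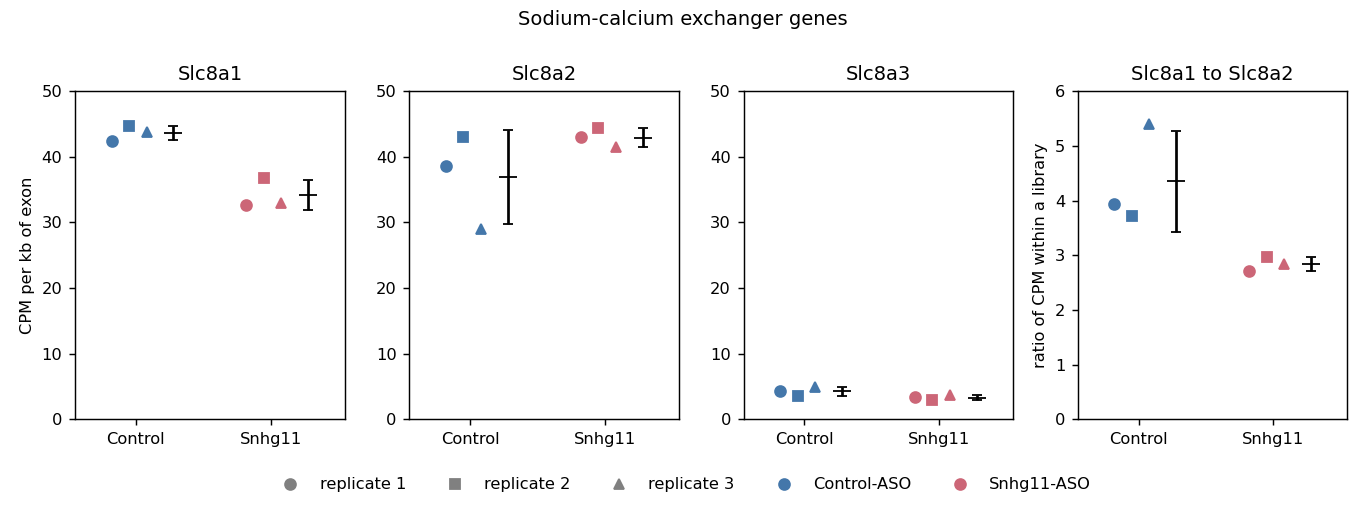
The first 3 panels plot Slc8a1, Slc8a2 and Slc8a3 in CPM per kb of exon on the same axis, and the last the ratio of Slc8a1 to Slc8a2 counts, for each of the 6 libraries with the mean ± SD in black. The ratio lies between 3.71 and 5.41 in Control-ASO and between 2.71 and 2.96 in Snhg11-ASO.

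The 10 genes differ widely in genomic span, the distance from the first to the last annotated base. Ryr3 spans 586 kb, Ryr2 554 kb, Slc8a1 365 kb and Itpr1 338 kb, while Slc8a2 spans 31.2 kb. Of the 558 tested genes that span at least 300 kb, 458 (82.1%) averaged lower in Snhg11-ASO, with a median log2 fold change of −0.23. Of the 6535 genes of 30 to 300 kb, 47.3% were lower and the median was 0.01. All 4 calcium genes of at least 300 kb averaged lower. After each library's trend with span was removed, the log2 fold change was 0.20 for Ryr2, 0.11 for Ryr3, −0.10 for Itpr1 and −0.17 for Slc8a1 (edgeR Benjamini-Hochberg adjusted p for Slc8a1 = 0.705), and the median of the 10 was −0.03. Atp2b2, which spans 299 kb, moved from −0.18 to −0.03. With the span correction none of the 10 reached an unadjusted p under 0.05, where 7.48% of all genes did. With the span correction and the replicate block together, 1 did, Slc8a3, at a log2 fold change of −0.31 and an edgeR adjusted p of 0.622, with 7.89% of all genes. The difference in log2 fold change between Slc8a1 and Slc8a2 was −0.58 before the correction and −0.37 after it, the smallest of the 21 alternatives, and the largest was −0.69.

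**Figure D4:**
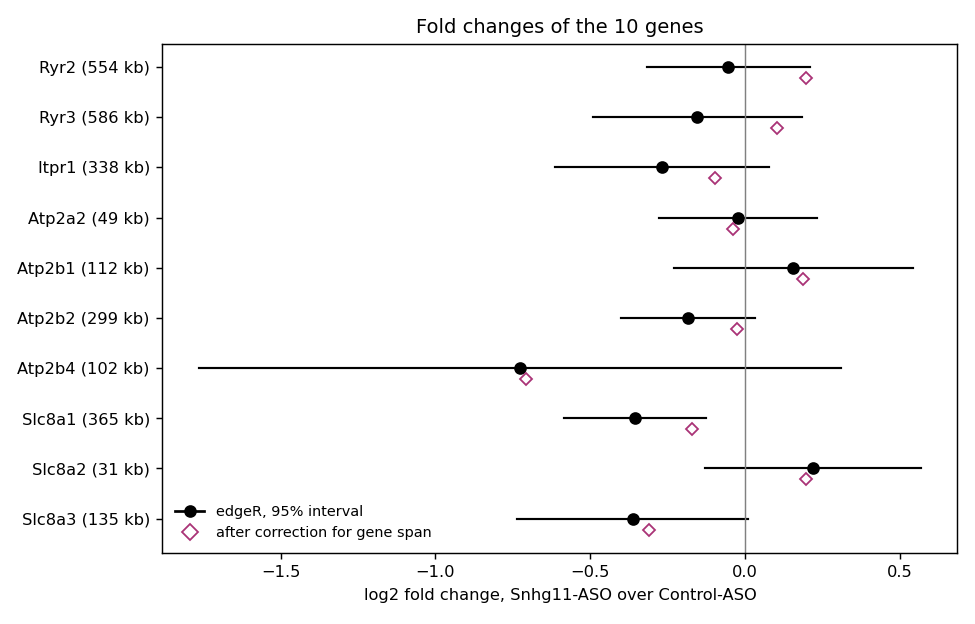
Log2 fold changes of the 10 genes, Snhg11-ASO over Control-ASO, as black points with 95% intervals from edgeR, and as open diamonds after correction for genomic span, which stands in kb beside each name. Only the interval of Slc8a1, from −0.58 to −0.13, leaves out 0, and the diamonds of Ryr2 and Ryr3 lie above 0.

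The other genes of calcium handling were read in 8 lists of 96 genes, of which 90 were tested. Together 47 averaged lower and 43 higher, with a median log2 fold change of −0.01. None passed the adjusted threshold, and 4 reached an unadjusted p under 0.05 (4.44%, where 8.11% of all genes did), of which 3 were lower. The release channels outside the 10 (Ryr1, Itpr2 and Itpr3) had a median of −0.10, with 2 of 3 lower, and Itpr2 was the most abundant of them per kb with a log2 fold change of −0.10. The other store and Golgi pumps and their small regulators had a median of −0.15, with 3 of 5 tested genes lower, and Atp2c1, a Golgi pump, had a log2 fold change of 0.09. The other genes of plasma membrane extrusion had a median of −0.11, with 6 of 8 lower, among them Bsg, a subunit partner of the plasma membrane pumps, at −0.16.

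IP3 metabolism acts upstream of the IP3 receptor. The median log2 fold change of its 20 genes was 0.04, with 8 lower and 12 higher. Plcb1, a phospholipase C that makes IP3 below muscarinic and metabotropic glutamate receptors, was counted at 250, 305 and 282 CPM in Control-ASO and at 187, 234 and 186 CPM in Snhg11-ASO. Its groups did not overlap, and its log2 fold change was −0.46 (edgeR, unadjusted p = 0.0086, Benjamini-Hochberg adjusted p = 0.498). Plcb1 spans 689 kb and is thus among the long genes. Itpkb, a kinase that removes IP3, was at 34.9, 30.9 and 28.6 CPM and at 43.2, 42.9 and 34.3 CPM, a log2 fold change of 0.35 (edgeR, unadjusted p = 0.035, Benjamini-Hochberg adjusted p = 0.583). Itpka, the most abundant gene of the list per kb and an IP3 kinase of dendritic spines, had a log2 fold change of 0.16 and an edgeR Benjamini-Hochberg adjusted p of 0.779.

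Store-operated entry, by which an emptied store opens channels of the plasma membrane, had 4 genes lower and 8 higher of 12, with a median log2 fold change of 0.03. Saraf, which limits store-operated entry and was the most abundant of the list per kb, was at 0.01. The partners of ryanodine and IP3 receptors had a median of 0.01 over 17 tested genes, with Fkbp1a, which binds ryanodine receptors, at 0.25. Mitochondrial uptake had a median of −0.02 over 11 genes, with Vdac1, a channel of the outer membrane, at −0.02.

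Of the calcium buffers and calmodulin genes, 10 of 14 averaged lower, and the median log2 fold change was −0.06. Hpcal1, a calcium sensor of the visinin-like family, was at 14.7, 9.16 and 15.2 CPM in Control-ASO and at 5.61, 7.32 and 8.45 CPM in Snhg11-ASO. Its groups did not overlap, with a log2 fold change of −0.87 (edgeR, unadjusted p = 0.010, Benjamini-Hochberg adjusted p = 0.507). Calm2, 1 of 3 genes for calmodulin and the most abundant of the list per kb, was at 0.06.

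**Figure D5:**
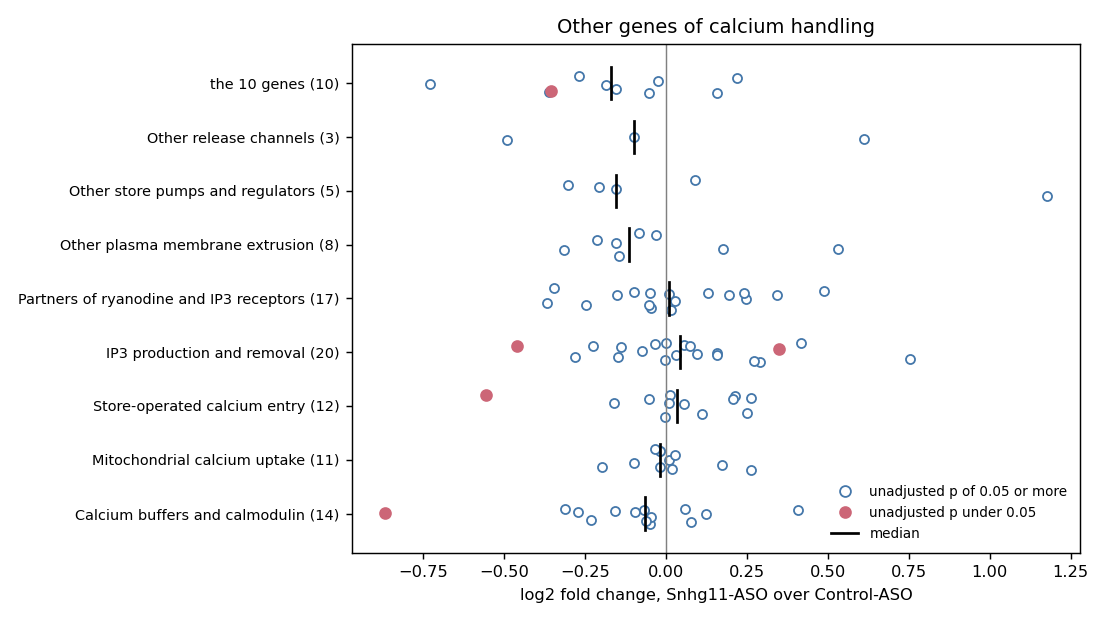
Log2 fold changes, Snhg11-ASO over Control-ASO, for the 10 genes and for 8 lists of other calcium handling genes, with the number of tested genes in brackets, the median of each list as a black line and genes with an unadjusted p under 0.05 filled in red. The medians of the 8 lists run from −0.15 to 0.04, and that of the 10 genes is −0.17.

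The 5 genes whose level followed the mean log2 CPM of the 10 most closely over the 6 libraries were Apba3 (Pearson r = 0.996), Atp8a2 (0.991), Adar (0.991), A830073O21Rik (0.990) and Nup85 (0.989). The mean log2 CPM of the 10 was 8.27 to 8.34 in the Control-ASO libraries and 8.11 to 8.18 in the Snhg11-ASO libraries, without overlap. Of all single genes tested, 7.7% lay apart in that direction. That share is for single genes, and means over other sets of 10 genes were not taken for comparison. The summed CPM of the 10 did overlap, at 4697 to 5320 in Control-ASO and 4506 to 4906 in Snhg11-ASO. A mean of log2 values gives genes of low level the same weight as abundant ones. The correlations are a description over libraries that share their grouping and scaling.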

How the data were processed

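Ribo-depleted, stranded total RNA of the dorsal hippocampus was sequenced in paired reads of 50 bases. The authors aligned the reads to mm10 (GRCm38) and deposited raw counts of read pairs per gene for each sample, not normalized and not pooled. The submitters' processing notes name STAR 2.5.2a, and the methods name Rsubread for counting, while the files have the layout of STAR's own gene counts. Each file also holds 4 summary lines that name no gene, with 43.5% to 51.4% of the read pairs, which were left out. The methods left out 1 Snhg11-ASO sample that they do not name, and all samples were kept here.

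Counts of the reverse strand were tested in edgeR 4.0.16 (R 4.3.3) after filterByExpr with a minimum count of 10 and TMM scaling, by the quasi-likelihood test with group as the only term and Benjamini-Hochberg adjustment over 19969 genes. The fit had a common biological coefficient of variation (BCV) of 0.266 and 2.99 prior degrees of freedom. Between 642 and 58009 read pairs per library lay behind a value of the 10 genes. Log2 values used a prior count of 2. Names, positions and merged exon lengths came from GENCODE M21, which matched 55141 of 55401 identifiers, and promoters from RefSeq on GRCm38.p6. Reads on the opposite strand were at most 0.870% of the counts of any of the 10 genes. The scripts were tested on simulated data. Exact permutation tests used scipy 1.17.1.

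The 10 genes, the other lists and the rule for named genes were chosen with earlier results of these data known. From each list of calcium genes the rule took up to 4 genes with an unadjusted p under 0.05 and the gene with the highest level per kb, from the marker lists the most abundant gene and up to 2 genes under 0.05, not all of which are printed, and the 5 genes most like the mean of the 10. Trdn, Hrc, Tespa1, Sln and Slc24a1 had too few counts to be tested and Arln was not matched. Of the genes this rule names, 1 is not reported here by name, although it enters the counts.

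Both groups carry the replicate numbers 1, 2 and 3. As a check, each sample's deviation from its group mean was correlated with that of the sample of the same number, which gave 0.297, 0.179 and 0.103. All were above 0.1, and the numbers were used as a block in some of the alternatives. The main fit and the exact permutation tests did not pair the samples. Samples of unlike number were not correlated for comparison. The block thus rests on these values alone, since the labels and methods do not say what a number marks. The 21 alternatives were DESeq2 1.42.0, upper-quartile factors or DESeq2's size factors in edgeR, other low-count filters, counts of both strands, the replicate block, loess corrections (span 0.3) for genomic span or GC content with and without the block, limma-voom 3.58.1 with sample weights, and fits without single samples in edgeR and DESeq2.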

Additional observations from a re-analysis of the deposited data

How the results depend on the processing

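Over the 21 alternatives, Itpr1, Atp2b2, Atp2b4, Slc8a1 and Slc8a3 averaged lower (Atp2b2 at only −0.026 with the span correction) and Atp2b1 and Slc8a2 higher in Snhg11-ASO throughout, and only Slc8a1 passed an adjusted p of 0.05. It did so in DESeq2, at a log2 fold change of −0.35, and in DESeq2 without Snhg11-ASO replicate 1 (−0.33) or 2 (−0.41). Ryr2 turned to 0.20 with the span correction and to 0.19 with that correction and the replicate block, Ryr3 to 0.11 in both, and the median of the 10 genes moved to −0.032 and −0.035. Leaving out each library in edgeR gave −0.10 to 0.028 for Ryr2 and −0.11 to 0.040 for Atp2a2, the positive values without Snhg11-ASO replicate 3, where DESeq2 gave 0.031 and 0.043. The number of the 10 at an unadjusted p under 0.05 (share of all genes in brackets) was 3 with upper-quartile factors (8.15%), 2 without a filter on low counts (6.34%), 3 with the replicate block (8.59%), 3 with the GC correction and block (8.33%), 0 with the span correction (7.48%), 1 with that correction and the block (7.89%), 3 in limma-voom (12.1%), 1 to 4 when each library was left out in edgeR (4.36% to 9.94%), and 2 in DESeq2 without each Snhg11-ASO replicate in turn (9.18% to 9.54%). Over all genes, DESeq2 called 258, limma-voom 7, edgeR without single libraries 0 to 2, and DESeq2 without Snhg11-ASO replicates 1, 2 and 3 called 348, 269 and 221. The cause of these differences was not tested. The replicate block changed no call at an adjusted p of 0.05 among the 10. The medians of the other lists crossed 0 under some alternative for the release channels (−0.18 to 0.10), the store pumps (−0.37 to 0.15), the receptor partners (−0.03 to 0.08), store-operated entry (−0.02 to 0.11), mitochondrial uptake (−0.05 to 0.06) and the buffers (−0.15 to 0.02), but not for extrusion (−0.17 to −0.03) or IP3 metabolism (0.02 to 0.13). With 3 libraries a group, the 95% interval was widest for Atp2b4, from −1.77 to 0.31.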

Other observations

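The markers of other cell types give the setting of the calcium genes. The 6 oligodendrocyte markers averaged higher in Snhg11-ASO, with a median log2 fold change of 0.28 and none at an unadjusted p under 0.05, and over the alternatives this median ran from −0.01 to 0.59. The 6 markers of endothelium and vascular muscle also averaged higher, with a median of 0.43 (0.23 to 0.55 over the alternatives). Tagln, an actin-binding protein of smooth muscle, had a log2 fold change of 1.07 (edgeR, unadjusted p = 0.0005, Benjamini-Hochberg adjusted p = 0.308). The median was 0.10 for DG granule cells (0.02 to 0.22 over the alternatives), 0.08 for pyramidal cells (−0.05 to 0.28), 0.00 for astrocytes (−0.24 to 0.29) and −0.18 for microglia (−0.52 to 0.25). The microglial value was 0.25 without Snhg11-ASO replicate 1 and −0.52 without Snhg11-ASO replicate 3, and the astrocyte extremes came from the same libraries. Among the fits without 1 library, the pyramidal median was highest without Snhg11-ASO replicate 1 and lowest without Snhg11-ASO replicate 2, and that of granule cells highest without Control-ASO replicate 2 and lowest without Control-ASO replicate 1. Sst, the peptide somatostatin of a class of interneurons, was at 60.6, 68.3 and 58.2 CPM in Control-ASO and at 44.8, 38.3 and 55.1 CPM in Snhg11-ASO, with groups that did not overlap and a log2 fold change of −0.44 (edgeR, unadjusted p = 0.022, Benjamini-Hochberg adjusted p = 0.551). Syt1, the calcium sensor of synaptic vesicle release, was at 915, 913 and 987 CPM and at 737, 796 and 725 CPM, a log2 fold change of −0.32 (edgeR, unadjusted p = 0.013, Benjamini-Hochberg adjusted p = 0.528). Syt1 spans 513 kb, and its groups did not overlap. Wfs1, a marker of pyramidal cells, went the other way, with a log2 fold change of 0.40 (edgeR, unadjusted p = 0.031, Benjamini-Hochberg adjusted p = 0.574) and groups that overlapped.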
